A study of Mus musculus with 6 samples.

Results

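The genes described here are Dnmt1, Dnmt3a, Dnmt3b, Dnmt3l and Uhrf1, which write and maintain DNA methylation, and the measurement is chromatin accessibility around them in mouse embryonic stem cells (ESCs) and expanded potential or extended pluripotent stem cells (EPSCs). The 5 genes were chosen by name among 22367 protein-coding genes of the GENCODE M1 annotation on mm9, and every accessible region, or peak, that overlapped a gene or the 20 kb on either side of it was taken. Peaks came from ATAC-seq, in which the Tn5 transposase inserts adapters into open DNA, so that fragments accumulate where chromatin is accessible. The study had 6 libraries from 3 cell states with 2 technical replicates each, and it deposited 1 list of peak positions per state.

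All 3 states came from J1 mESCs of strain 129SV, so 1 genetic background was sampled. ESCs grew in serum medium with 15% FBS, LIF at 1000 units/mL and the inhibitor pair CHIR99021 (3 µM, against Gsk3) and PD0325901 (1 µM, against Mek). D-EPSCs, made by the conditions of the Deng group, grew in N2B27 medium with 5% KSR, LIF at 1000 units/mL, CHIR99021 (3 µM), dimethindene maleate (2 µM) and minocycline hydrochloride (2 µM). L-EPSCs, made by those of the Liu group, grew in DMEM/F12 with 20% KSR, LIF at 1000 units/mL, CHIR99021 (3 µM), PD0325901 (1 µM), A-419259 (0.3 µM), XAV939 (5 µM), JNK inhibitor VIII (4 µM) and SB203580 (10 µM). LIF and CHIR99021 were common to the 3 media, while PD0325901 was in those of ESCs and L-EPSCs. Both EPSCs were kept without feeder cells for several passages before ATAC-seq. ESCs could be grown on feeder cells or gelatin, and which support the sequenced ESCs had was not given in the sources used here.

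Dnmt1 copies methylation onto the new strand after replication, and Uhrf1 brings it there by binding hemimethylated CpG sites. Dnmt3a and Dnmt3b methylate DNA that carried no mark before, and Dnmt3l, which has no catalytic activity of its own, assists them. Dnmt3a is known to be transcribed from a promoter at its 5′ end and from an internal promoter that gives a shorter enzyme, Dnmt3a2, the main form in mouse ESCs. Medium with Mek and Gsk3 inhibitors is known to lower DNA methylation in mouse ESCs.

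The lists hold only the start and end of each peak, with no height, score or value per replicate, so no difference below has a replicate test. The sequencing depth behind each list is unknown, and a missing peak does not show that chromatin was closed. Counted on the autosomes and X and Y, peaks numbered 28965 for ESCs, 50225 for D-EPSCs (1.73 times as many) and 46601 for L-EPSCs (1.61 times). The members' counts are read against these lengths, and depth and cell state cannot be told apart as sources of the lengths. The pluripotency genes Pou5f1 and Sox2 had a start peak in every list, and Nanog had one in both EPSC lists and none in the ESC list. A peak at a start is no measure of expression. By its presence only Nanog differed between ESCs and EPSCs, and none of these genes differed between D-EPSCs and L-EPSCs.

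In the 5 gene windows there were 16 ESC peaks, 43 of D-EPSCs and 31 of L-EPSCs. These were 2.69 and 1.94 times the ESC number, above the ratios of the whole lists. A region divided into 2 peaks counts as 2 here. This was so at the Uhrf1 start in both EPSC lists, and at the Dnmt3a 5′ start and the Plin3 start in L-EPSCs. The bases under peaks came to 7839 bp in the ESC list, 19150 bp in D-EPSCs and 14289 in L-EPSCs, or 2.44 and 1.82 times ESCs, where the whole lists gave 1.86 and 1.67. For L-EPSCs this rested on single genes. Without Dnmt3a the other 4 genes had 1.62 times the ESC number of peaks and 1.61 times its covered bases, and without Dnmt3l 1.60 times its covered bases. D-EPSCs had at least 2.38 times the number and 2.14 times the covered bases whichever gene was left out. When every list was cut to its 28965 widest peaks the numbers were 16, 24 and 22, so D-EPSCs and L-EPSCs stayed above ESCs in the windows when the lists had the same length. By gene, Dnmt3a had the most peaks in the EPSC lists, and Uhrf1 and Dnmt3l had the most and the fewest covered bases in ESCs, 3059 and 606 bp.

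**Figure D1:**
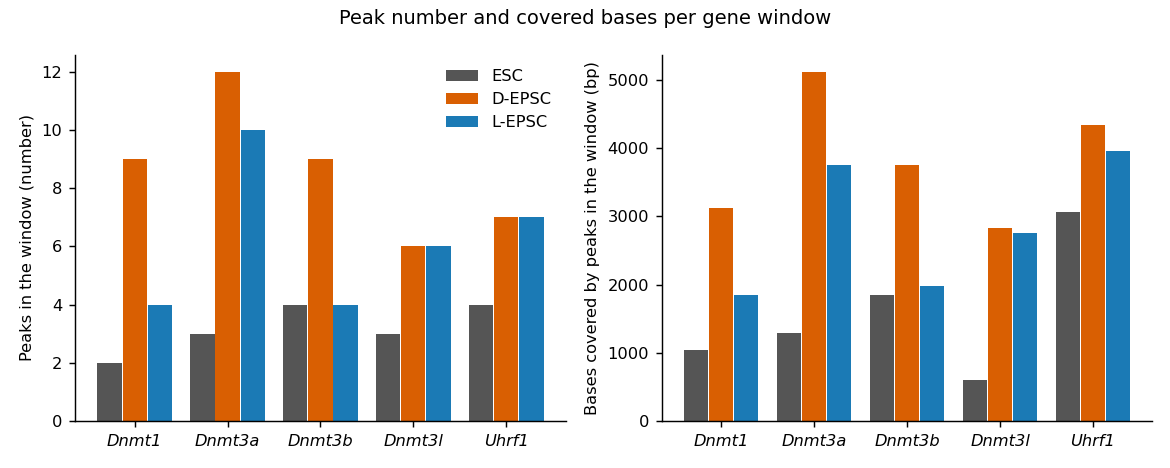
Number of peaks (left) and bases covered by peaks in bp (right) in the window of each gene, from 20 kb before to 20 kb after it, for ESCs, D-EPSCs and L-EPSCs; each bar is 1 list, so there are no error bars. D-EPSC bars are the highest or tied in every gene, and the L-EPSC number equals that of ESCs at Dnmt3b, with 4 peaks each.

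Dnmt1, the maintenance enzyme, lies on the reverse strand at chr9:20711650-20757317 and has 1 annotated transcript with 39 exons. Its window held 2 ESC peaks, 9 D-EPSC peaks and 4 L-EPSC peaks. The start region, chr9:20756734-20757592, covers the first exon and had a peak of 480 bp in the ESC list, 859 bp in D-EPSCs and 785 in L-EPSCs. The EPSC peaks were wider than the ESC peak at this start.

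Its central 200 bp, chr9:20757063-20757262, are shown because this was the only Dnmt1 region inside the gene with an ESC peak. The sequences here and below were read from NCBIM37, the same assembly as mm9, on the strand of the gene and from 5′ to 3′. Capitals mark exact matches, on either strand, to any of 9 words of known motifs: GGGCGG (Sp/KLF), CCGGAAGT (ETS), CCAAT (NF-Y), TTTGGCGC, TTTCCCGC and TTTCGCGC (E2F), ATGCAAAT (octamer), CCTCCCCC (similar to the Zfp281 motif) and AGGTCA (the core of nuclear receptor sites). None of these words is contained in another. For each gene the middle of the start region is shown, as the place where the lists are compared.

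Dnmt1 start region: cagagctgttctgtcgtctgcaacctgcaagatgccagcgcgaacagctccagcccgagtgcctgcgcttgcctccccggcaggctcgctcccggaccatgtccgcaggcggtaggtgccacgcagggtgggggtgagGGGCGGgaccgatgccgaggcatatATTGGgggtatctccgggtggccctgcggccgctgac

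The window holds GGGCGG and CCAAT once each, the second on the other strand, with 17 CpG sites. Outside these 200 bp the region also holds the E2F words TTTGGCGC (2 matches) and TTTCGCGC (1), and CCGGAAGT and CCTCCCCC (1 each). Of all merged regions, 20.9% held GGGCGG and 21.9% held CCAAT in the central 200 bp, and of those at starts 51.0% and 20.2%. A match to such a word is a description of the sequence, not evidence that a factor bound it.

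Inside Dnmt1, intron 1 held a region with EPSC peaks and no ESC peak, chr9:20748397-20748777, 381 bp wide in D-EPSCs and 228 in L-EPSCs. The nearest ESC peak was 8304 bp away. Its central 200 bp, chr9:20748487-20748686, are shown as the widest region of this kind in the gene, and unlike the start region they hold 2 CpG sites and no match to the 9 words.

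Dnmt1 intron 1 region: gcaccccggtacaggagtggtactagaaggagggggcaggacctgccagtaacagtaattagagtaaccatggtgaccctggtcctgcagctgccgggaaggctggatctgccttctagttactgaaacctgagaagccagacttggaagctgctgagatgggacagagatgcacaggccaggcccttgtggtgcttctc

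D-EPSCs alone had a 468 bp peak in exon 37 of 39, at chr9:20712926-20713393, and a 201 bp peak in intron 29 of 38, at chr9:20718084-20718284. Both lie toward the 3′ end of the gene, and the nearest L-EPSC peaks were 9761 and 14919 bp away. The ESC list had no peak between 20692918 and 20757080 on chromosome 9, a stretch of 64.2 kb that took in all of Dnmt1 except its first exon and the start of intron 1.

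**Figure D2:**
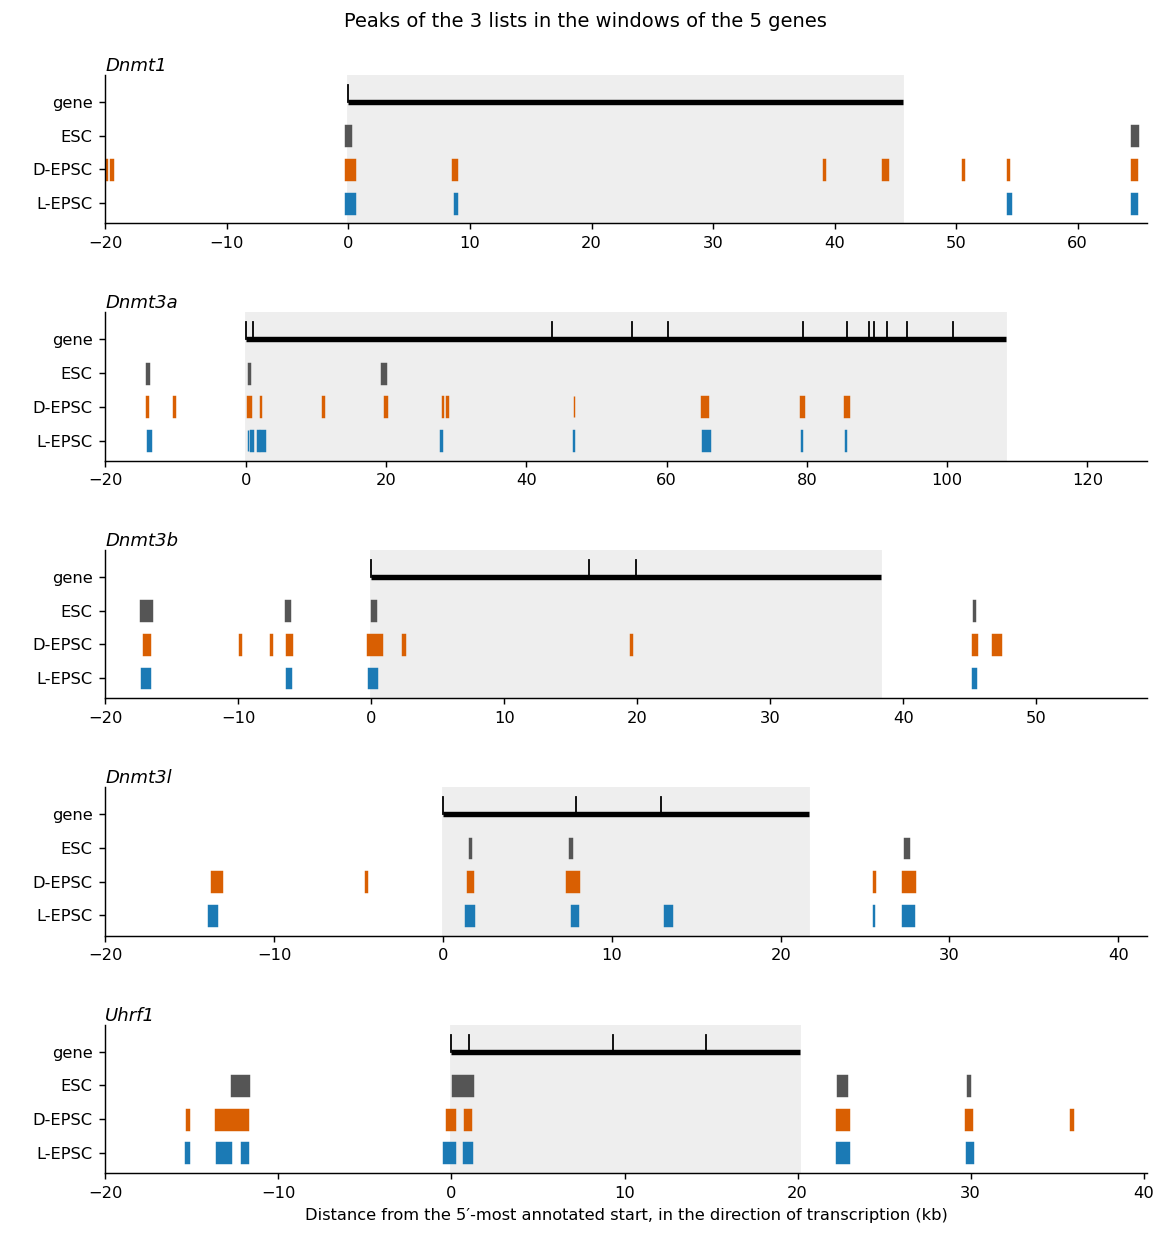
Peaks of ESCs (grey), D-EPSCs (orange) and L-EPSCs (blue) along the windows of the 5 genes, by distance in kb from the 5′-most annotated start in the direction of transcription; the black line and shading mark the gene, black ticks its start groups, and each coloured bar 1 peak at its position and width. In Dnmt3a the row of ESCs is empty from about 20 kb after the start to the end of the window, where both EPSC rows hold peaks, and at the start of Uhrf1 1 ESC peak spans the space between pairs of EPSC peaks.

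Dnmt3a, a de novo enzyme, spans 108437 bp at chr12:3806007-3914443 on the forward strand. Its annotated transcripts number 18, and their starts fall into 12 groups when starts within 500 bp are joined. The window held 3 ESC peaks, 12 D-EPSC peaks and 10 L-EPSC peaks, which covered 1290, 5115 and 3757 bp. Within the gene itself the lists had 2, 10 and 9 peaks. The added EPSC peaks thus lay almost wholly within the gene and not around it.

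The 5′ start region, chr12:3806249-3807032, had a peak in every list, of 346 bp in ESCs and 499 bp in D-EPSCs, and 2 peaks of 118 and 329 bp in L-EPSCs. It lies within 1 kb of the first start group and of the second, which holds the full-length transcripts Dnmt3a-001 and Dnmt3a-006 with 2724 coding bases each. L-EPSCs alone had a further peak of 279 bp, chr12:3807662-3807940, 502 bp after the last start of that group. The start region is very rich in GC, at 78.2% over its length, with a CpG observed/expected ratio of 0.846 (the CpG sites found over those predicted from C and G content).

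Dnmt3a 5′ start region, chr12:3806540-3806739: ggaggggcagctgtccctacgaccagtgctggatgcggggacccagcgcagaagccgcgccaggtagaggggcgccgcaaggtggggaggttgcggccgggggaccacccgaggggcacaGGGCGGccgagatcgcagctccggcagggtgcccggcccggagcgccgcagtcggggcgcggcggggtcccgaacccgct

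Beyond it the gene had 6 merged regions that held peaks of D-EPSCs and L-EPSCs but not of ESCs. The first, chr12:3808012-3808747 in intron 1, was 129 bp wide in D-EPSCs and 621 in L-EPSCs, with 14 bp in common. The second, chr12:3833726-3834207 near the end of intron 1, was 266 and 232 bp wide, with 16 bp in common, so that in these first 2 regions the peaks lay mostly side by side. The third, chr12:3852680-3852874 in intron 3, was 117 and 195 bp wide. In each of these 3, at least 1 peak was narrower than the median of its list, 364 bp in D-EPSCs and 358 in L-EPSCs.

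The widest was the fourth, chr12:3870953-3872139 in intron 4 of 22, with peaks of 997 bp in D-EPSCs and 1088 in L-EPSCs. No ESC peak lay within 44967 bp of it, and the closest annotated start of the gene was 4762 bp away. Its central 200 bp, chr12:3871446-3871645, hold 2 CpG sites and none of the 9 words.

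Dnmt3a intron 4 region: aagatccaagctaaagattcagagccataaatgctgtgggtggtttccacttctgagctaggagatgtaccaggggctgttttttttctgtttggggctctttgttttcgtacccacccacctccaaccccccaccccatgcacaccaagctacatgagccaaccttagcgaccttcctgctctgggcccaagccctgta

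The remaining pair lay in intron 6, each at an annotated start. The region chr12:3885041-3885660, 620 bp wide in D-EPSCs and 134 in L-EPSCs, lay at the start of Dnmt3a-010, a transcript of 3 exons that the annotation marks as incomplete. There the D-EPSC peak lay over the start, and the L-EPSC peak ended 95 bp before it. The region chr12:3891273-3892085 was 813 bp wide in D-EPSCs and 163 in L-EPSCs, and it lay at the starts of Dnmt3a-005 and Dnmt3a-201. Those transcripts have 2067 coding bases, 75.9% of the full length, and share 16 of their 17 coding exons with the full-length form. They lack the first coding part of the gene, as a transcript from the known internal promoter does. The D-EPSC peak lay over the start of Dnmt3a-005, and the L-EPSC peak ended 134 bp before it. The nearest ESC peak was 65287 bp away from the region. An annotated miRNA gene, AC159324.1, started 542 bp from this region on the other strand.

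The 200 bp around the middle of the internal start region, chr12:3891579-3891778, are shown as the start with the widest EPSC peak where ESCs had none, a choice made after its values were seen. The start of Dnmt3a-005 is base 150 of this stretch, which holds CCTCCCCC 4 times and AGGTCA and GGGCGG once each. Of all merged regions, 5.63% held CCTCCCCC and 13.4% held AGGTCA in the central 200 bp. The D-EPSC peak covered the whole stretch, while the L-EPSC peak ended at 3891594, before the first marked word.

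Dnmt3a internal start region: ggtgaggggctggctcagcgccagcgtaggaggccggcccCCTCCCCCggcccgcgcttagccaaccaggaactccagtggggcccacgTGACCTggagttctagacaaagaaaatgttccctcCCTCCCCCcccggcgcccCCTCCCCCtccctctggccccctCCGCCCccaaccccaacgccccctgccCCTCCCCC

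Over its whole length this region had a GC content of 65.2% and a CpG observed/expected ratio of 0.520, both below the 5′ start region. The other 8 start groups of Dnmt3a had no peak within 1 kb in any list. Their nearest peaks were 2739 to 14731 bp away in D-EPSCs, 3045 to 15222 bp in L-EPSCs and 23649 to 64922 bp in ESCs.

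D-EPSCs alone had peaks of 332 bp at chr12:3816902-3817233 and of 300 bp at chr12:3834511-3834810, both in intron 1. A region shared by ESCs (624 bp) and D-EPSCs (481 bp), chr12:3825363-3826148 in intron 1, had no L-EPSC peak within 7578 bp. It was the only region of the 5 windows with an ESC peak and without a peak in all 3 lists. After it, the ESC list had no peak for 133.8 kb, up to chr12:3959790, where D-EPSCs had 7 peaks (1 of them only in part) and L-EPSCs 6 (1 of them beyond the window). Such long gaps were not rare in the ESC list, since 14.9% of its gaps between neighbouring peaks were as long or longer, with a median of 32.0 kb.

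A window with 6 or more regions found in both EPSC lists and not in ESCs was seen for 0.456% of coding genes. The Dnmt3a window is long, and per 10 kb of window 7.81% of coding genes had as many or more. The count rests on narrow peaks: with the 28965 widest peaks of each list only the intron 4 region remained of the 6, since the others were narrower than 309 bp in D-EPSCs or 279 bp in L-EPSCs. When regions were merged only at a reciprocal overlap of 50%, 2 were left, and 4 at an overlap of at least 100 bp.

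Dnmt3b, the other de novo enzyme, lies at chr2:153475186-153513466 on the forward strand. Its window had 4 ESC peaks, 9 D-EPSC peaks and 4 L-EPSC peaks. The start region, chr2:153474850-153476003, serves the 10 coding transcripts and was 351 bp wide in ESCs, 1154 bp in D-EPSCs and 678 in L-EPSCs. The order of widths, D-EPSCs before L-EPSCs before ESCs, was that of the Dnmt1 start and of the median coverage over coding genes. A non-coding transcript of the other strand, 7530422B04Rik, starts 19 bp from the region, so its start and that of Dnmt3b cannot be told apart by these peaks.

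Dnmt3b start region, chr2:153475326-153475525: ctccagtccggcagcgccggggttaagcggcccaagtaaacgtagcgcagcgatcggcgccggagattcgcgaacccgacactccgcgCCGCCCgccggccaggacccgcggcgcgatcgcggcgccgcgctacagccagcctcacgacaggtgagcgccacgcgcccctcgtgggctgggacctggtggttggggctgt

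These 200 bp have 32 CpG sites, the most of the sequences printed here. Every region of the Dnmt3b window was either in all 3 lists, with 4 such regions, or in D-EPSCs alone, with 5. Inside the gene D-EPSCs alone had a 178 bp peak in intron 1, chr2:153477518-153477695, and a 150 bp peak in intron 7, chr2:153494623-153494772. The second lies 334 bp from the start of Dnmt3b-011, which the annotation gives as a retained intron. The widest of the 5, of 645 bp at chr2:153521847-153522491, lay after the gene and over the start of the pseudogene Gm14490. All 5 except that peak were under 309 bp, and none had a counterpart in L-EPSCs.

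Dnmt3l, the cofactor, lies at chr10:77504692-77526367 on the forward strand. Its window had 3 ESC peaks, 6 D-EPSC peaks and 6 L-EPSC peaks. Covered bases were 606 bp in the ESC list, 2829 bp in D-EPSCs and 2748 in L-EPSCs, so the EPSC lists covered 4.67 and 4.53 times as much as ESCs. These were the highest ratios among the 5 genes in each EPSC list, and each of the 3 regions shared with ESCs had a wider peak in both EPSC lists.

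The gene has 2 start groups that hold a transcript with the full 1263 coding bases. The first, with Dnmt3l-001, had no ESC or D-EPSC peak within 1 kb, and the L-EPSC peak reached only 18 bp into that distance. The nearest region there, chr10:77506015-77506519, lay 58 bp from the start of Aire, a transcriptional regulator known from thymic epithelium that is read in the opposite direction, with 128 bp in the ESC list, 346 bp in D-EPSCs and 505 in L-EPSCs. The second group, with Dnmt3l-002 and Dnmt3l-003 in intron 2 of Dnmt3l-001, had the region chr10:77511959-77512747, of 168 bp in the ESC list, 789 bp in D-EPSCs and 423 in L-EPSCs. The ESC peak ended 280 bp before the first start of this group, and both EPSC peaks lay over it. The start peak of Dnmt3l in ESCs therefore stands next to the start and not on it.

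Dnmt3l start region, chr10:77512253-77512452: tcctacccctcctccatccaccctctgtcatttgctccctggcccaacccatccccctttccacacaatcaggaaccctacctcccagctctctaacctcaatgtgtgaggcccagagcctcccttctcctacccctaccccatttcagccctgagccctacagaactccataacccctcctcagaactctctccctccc

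This middle part of the region holds no CpG site and none of the 9 words, and the first start of the group lies beyond it, at base 335 counted from its first base. The start group nearest the 3′ end, with 3 short coding transcripts, had a 487 bp peak in L-EPSCs alone, chr10:77517777-77518263, where the nearest D-EPSC peak was 5030 bp and the nearest ESC peak 5470 bp away. It is shown as the only start inside the 5 genes, other than a weakly reached one, that had a peak in L-EPSCs alone, a choice made after its values were seen.

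Dnmt3l 3′ start region, chr10:77517920-77518119: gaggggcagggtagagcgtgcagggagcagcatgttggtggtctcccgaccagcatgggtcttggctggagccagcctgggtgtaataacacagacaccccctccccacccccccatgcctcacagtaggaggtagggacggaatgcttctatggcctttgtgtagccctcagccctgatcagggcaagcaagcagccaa

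The widest region of the Dnmt3l window, chr10:77490768-77491611, lay 13081 bp before the gene, with 661 bp in D-EPSCs, 520 bp in L-EPSCs and no ESC peak within 14596 bp. With the 28965 widest peaks of each list, this region and the intron 4 region of Dnmt3a were the 2 left in both EPSC lists only.

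Uhrf1, the factor that recruits Dnmt1, lies at chr17:56442744-56462909 on the forward strand. Its window had 4 ESC peaks, 7 D-EPSC peaks and 7 L-EPSC peaks. Its start region, chr17:56442273-56443986, holds 2 start groups, each with a transcript of the full 2346 coding bases. In ESCs 1 peak of 1222 bp reached both groups. In D-EPSCs the region held 2 peaks of 527 and 428 bp with 541 bp between them, and in L-EPSCs 2 peaks of 704 and 517 bp with 416 bp between them. The ESC peak covered both of these gaps in full.

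The start was thus 1 peak in ESCs and a pair of peaks in both EPSC lists, with summed widths of 1222, 955 and 1221 bp. Within the gene, Uhrf1 was the only one of the 5 with more bases covered in ESCs (1222 bp) than in D-EPSCs (616 bp) and L-EPSCs (750 bp). The 200 bp around the middle, chr17:56443029-56443228, lie in the gap of both EPSC lists and under the ESC peak. They hold the E2F word TTTCCCGC, found in the central 200 bp of 0.549% of all merged regions and of 1.38% of those at coding starts. The whole region holds this word 4 times.

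Uhrf1 start region: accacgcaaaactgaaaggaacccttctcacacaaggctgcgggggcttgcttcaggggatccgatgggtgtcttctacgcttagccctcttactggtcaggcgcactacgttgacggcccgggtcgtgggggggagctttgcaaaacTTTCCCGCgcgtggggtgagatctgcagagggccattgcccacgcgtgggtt

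No further region lay inside Uhrf1. The widest region of its window, chr17:56429108-56431071, lay at the start of Plin3, a lipid droplet coat protein, and had an ESC peak of 1048 bp and a D-EPSC peak of 1898 bp. In L-EPSCs it too was divided into 2 peaks, with a gap of 548 bp that the ESC peak covered.

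All 5 genes had a peak within 1 kb of a protein-coding start in each list. Over all coding genes this held for 51.5% (ESCs), 63.4% (D-EPSCs), 60.7% (L-EPSCs) and 50.4% in the 3 lists together, so a start peak in every list was the common case. Alternative starts differed between the lists. Of the 23 start groups, ESCs had a peak at 7, D-EPSCs at 10 and L-EPSCs at 11, where over all start groups of coding genes the shares were 32.5%, 42.5% and 40.4%. The member groups were near these shares, and 11 of the 23 had a peak in no list.

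Both start groups that had peaks in the EPSC lists and lacked one in ESCs belonged to Dnmt3a. This pattern was found in 7.29% of all start groups and in 11.9% of coding genes, while 2.88% of coding genes had, as Dnmt3a did, such a group beside another with an ESC peak. With the 28965 widest peaks of each list 0 start groups had the pattern, as the L-EPSC peaks of 134 and 163 bp were left out and the D-EPSC peaks of 620 and 813 bp were kept. With lists of that length D-EPSCs had a peak at both of these internal starts, and ESCs and L-EPSCs had none.

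**Figure D3:**
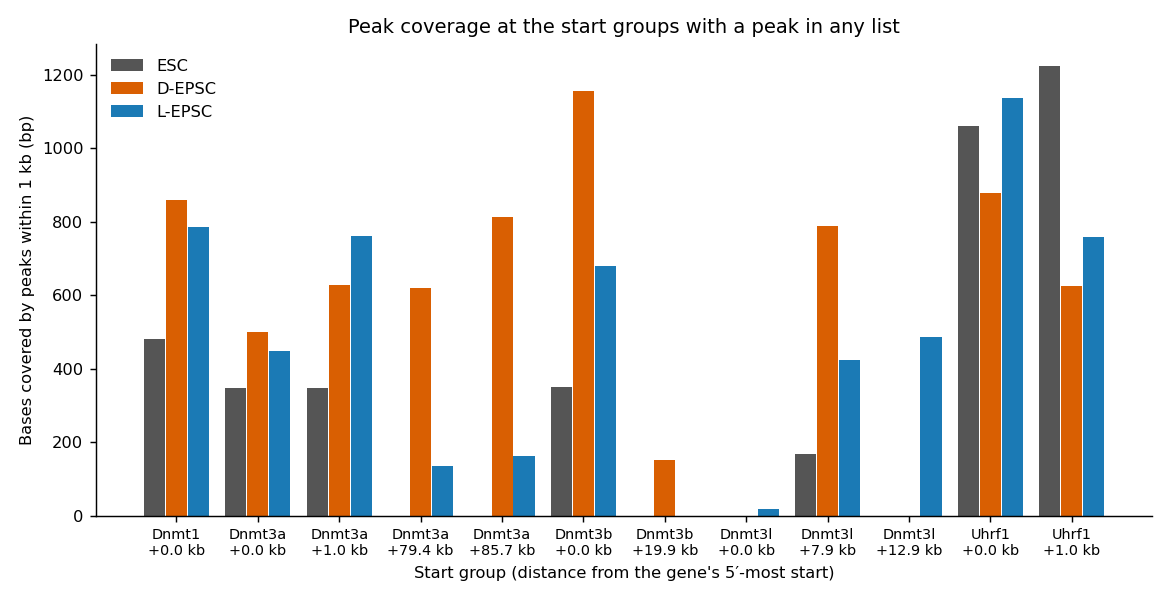
Bases covered by peaks within 1 kb of each start group, in bp, for the 12 start groups of the 5 genes with a peak in any list, named by gene and distance from its 5′-most start; each bar is 1 list and no bar means no peak. The Dnmt3a groups farthest along the gene have EPSC bars and no ESC bar, and the ESC bar is above the D-EPSC bar only at the Uhrf1 groups.

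Merging overlapping peaks of the 3 lists gave 44 regions in the 5 windows, 22 inside the genes and 22 outside. Of the 44, 15 were in all 3 lists (34.1%, 95% Wilson interval 21.9 to 48.9), where 33.2% of all 65518 merged regions were. A further 11 were in both EPSC lists only (25.0%, 14.6 to 39.4, against 18.4% of all regions), and 15 in D-EPSCs only (34.1%, 21.9 to 48.9, against 22.3%). The intervals cover counting error only, and in these 3 classes they contain the share of all regions. Among the 52000 regions in the windows of all coding genes 21.1% were in D-EPSCs only, just below the interval of that class. L-EPSCs alone had 2 regions (4.55%, 1.26 to 15.1), against 15.8% of all regions, and ESCs alone had 0 (upper Wilson limit 8.03%), against 5.12%. The interval for L-EPSCs alone ended below the share of all regions and contained that of regions in coding gene windows (15.06%), so that for both single EPSC lists the reading depends on the regions compared with. The intervals were not adjusted for the 7 classes.

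**Figure D4:**
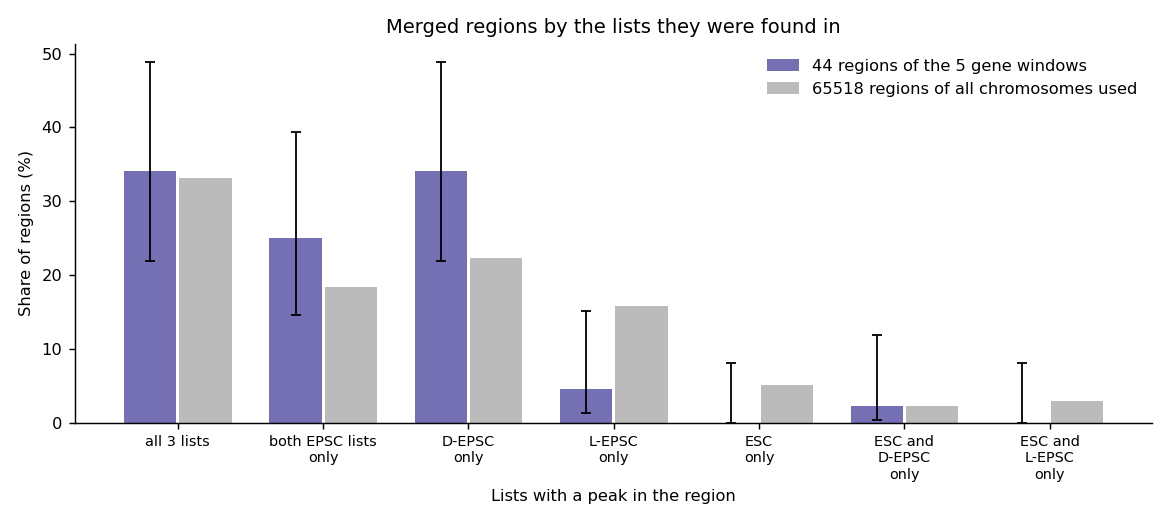
Share in percent of the 44 merged regions of the 5 gene windows (purple) and of all merged regions (grey) by the lists with a peak in them; the vertical lines are 95% Wilson intervals, for counting error only. The purple bars for D-EPSCs only and both EPSC lists only are above the grey ones, at 34.1% and 25.0%, and that for L-EPSCs only is below, at 4.55%.

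By the position of the midpoint, 10 of the 44 regions were within 1 kb of an annotated start of their gene, 1 was in an exon, 11 were in introns and 22 outside the gene. Of the 11 in introns, 1 was in all 3 lists, 5 were in both EPSC lists only, 4 in D-EPSCs only and 1 in ESCs and D-EPSCs. Inside the genes 7 regions had an ESC peak and 15 had none, and outside them 9 had and 13 had none. Regions without an ESC peak were common among all merged regions too. Of all regions, 22.3% were in D-EPSCs only, 18.4% in both EPSC lists only and 15.8% in L-EPSCs only. All regions were not divided into inside and outside genes, so whether the 5 genes differ from others in this was not tested. D-EPSC peaks of regions shared by more lists were wider at the median. They had a median of 513 bp in the 16 of regions in all 3 lists, 266 bp in the 11 of regions in both EPSC lists only and 180 bp in the 15 of regions of D-EPSCs only. In L-EPSCs the medians were 511 bp for regions in all 3 lists, 232 bp for those in both EPSC lists only and 383 bp for the 2 peaks of L-EPSCs only.

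At the start of another gene lay 7 of the 44 regions, 6 of them in all 3 lists. They were at Ppan, a ribosome biogenesis factor, and Eif3g, a subunit of a translation initiation factor, beside Dnmt1; at Commd7 beside Dnmt3b; at Aire and Icosl, a costimulatory ligand of T cells, beside Dnmt3l; and at Plin3 and Kdm4b, a histone lysine demethylase, beside Uhrf1. Only the Eif3g region had no ESC peak, with 189 bp in D-EPSCs and 336 in L-EPSCs. Without peaks at these starts the windows held 10 ESC, 36 D-EPSC and 23 L-EPSC peaks.

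Ranked by peaks per 10 kb of window among all coding genes, Uhrf1 stood at percentile 90.6 for ESCs, 93.8 for D-EPSCs and 94.7 for L-EPSCs. Dnmt3l was at 82.0, 88.8 and 90.2, and by the share of window bases covered at 51.2, 85.0 and 87.1. Dnmt3a moved from 46.6 in ESCs to 81.7 in D-EPSCs and 76.0 in L-EPSCs, and by bases covered from 47.6 to 74.3 and 65.8. Dnmt1 moved from 53.7 to 90.9 in D-EPSCs and 61.4 in L-EPSCs. By bases covered it moved less, from 58.2 to 76.6 and 59.2. Dnmt3b was at 83.7 for ESCs, 93.4 for D-EPSCs and 65.9 for L-EPSCs, lower in L-EPSCs than in ESCs. By bases covered it was at 82.8, 86.4 and 65.8. The order of Uhrf1 turned with the setting. With flanks of 10 kb it was at 89.5 for ESCs, 86.6 for D-EPSCs and 87.7 for L-EPSCs, and by the share of window bases covered at 98.6, 96.5 and 96.8. The percentiles were set within each list, and those by number count a divided region, as at the Uhrf1 start in the EPSC lists, as 2 peaks.

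In sequence, the 44 regions had a median GC content of 58.2%, against 53.5% for all merged regions, and a median CpG observed/expected ratio of 0.296 against 0.292. The ratio was 0.573 for the 10 regions at starts. It was 0.647 for the 15 regions in all 3 lists, 0.196 for the 11 in both EPSC lists only and 0.236 for the 15 in D-EPSCs only. Both of the latter classes were poorer in CpG than the first, and the 2 regions of L-EPSCs only had ratios of 0.930 (in Dnmt3a) and 0.254 (in Dnmt3l). The classes also differ in how many of their regions lie at starts, and the part of that was not tested.

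Of the 9 words, GGGCGG was in 19 of the 44 regions over their whole length, CCAAT in 23 and CCTCCCCC in 10, where 32.9%, 39.8% and 12.8% of all regions held them. AGGTCA was in 4, against 26.4% of all regions. The octamer was in 0, against 3.19%. The ETS word was in 2 regions, against 2.81% of all regions. Of the E2F words TTTGGCGC was in 1 region, TTTCCCGC in 1 and TTTCGCGC in 2, where 0.740%, 1.66% and 0.353% of all regions held them. Regions differ in length, and no match says only that these letters were not in the sequence.

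Other genes of the pathway were taken as a list of 26 partners, oxidases, readers and targeting factors of DNA methylation. Each list had a peak at a coding start of 24 of them, and 23 had one in all 3 lists. Tet1, an enzyme that oxidizes methylated cytosine, had a peak within 1 kb of a start in ESCs only, with 343 bp covered. That peak lay 583 bp from the start and not on it, and the nearest peaks were 4209 bp away in D-EPSCs and 1244 in L-EPSCs. The difference from L-EPSCs thus rests on the 1 kb limit, which falls between their distances. Zbtb4, which binds methylated DNA, had start coverage of 868 bp in D-EPSCs and 504 in L-EPSCs and no ESC peak within 6751 bp. Dppa3, which opposes maintenance methylation by binding Uhrf1, had no peak within 1 kb in any list, with the nearest at 6647, 1415 and 1525 bp. Of the 23 genes with a start peak in all 3 lists, 18 had more bases covered at their starts in both EPSC lists than in ESCs, 2 (Ahcy and Mbd4) had fewer in both and 3 (Tet2, Dmap1 and Zbtb33) had neither order. Among all coding genes with such a peak in every list 72.2% had more in both, a share near that of the list. Among the larger differences, for the paralog Uhrf2 the covered bases at the start were 412 bp in the ESC list, 1337 bp in D-EPSCs and 976 in L-EPSCs, and for Usp7, which stabilizes Dnmt1, 210, 951 and 727 bp. A peak at a start in every list was thus the common state of this list of genes, as it was of the members.

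Genes with start coverage most like that of a member were found by the summed difference, over the 3 lists, of the bases covered within 1 kb of coding starts. Close to Dnmt1 was Sykb at 23 bp, among 43 genes within 100 bp. Closest to Dnmt3b were Thbd at 65 bp and Bmp7 at 74 bp, and closest to Dnmt3l A4galt at 18 bp and Rcan3 at 49 bp. Dnmt3a and Uhrf1 had 0 genes within 100 bp, a limit that is not scaled to the bases covered, and the smallest differences were 166 bp for Dnmt3a and 102 bp for Uhrf1. The likeness rests on 3 values per gene and says nothing of shared function.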

How the data were processed

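ATAC-seq was performed on 6 libraries, 2 technical replicates each of ESCs, D-EPSCs and L-EPSCs, with paired reads of 150 bp. The authors checked reads with FastQC 0.10.1, trimmed them with Trim Galore 0.6.3, aligned them to mm9 with Bowtie2 2.3.5, filtered for proper pairs and mapping quality in SAMtools 1.10, and used MACS under its defaults to call peaks. The sources used here do not give how replicates were combined, or whether duplicates were removed, cut sites shifted or blacklisted regions filtered. An unshifted cut site would alter the edges of a peak by only a few bases, and duplicates or depth can affect how many narrow peaks are called. None of these was tested here. Per the file headers and contents, each deposited list has 4 columns (chromosome, start, end and peak name) and no score, so peak positions and widths were the only values.

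Starts were converted to count from 1, and peaks of chromosomes 1 to 19, X and Y were used. Peaks were counted where they overlapped a gene or its flanks by 1 bp, and overlapping peaks of the 3 lists were merged into regions. Transcript starts within 500 bp were joined into start groups, and a start had a peak within 1 kb. Each region was placed by its midpoint. Positions and sequence came from NCBIM37 with GENCODE M1, and every peak lay within its chromosome. The 5 genes, the list of 26 genes and the motif words were chosen with earlier results of these data known. Named were the 5 genes, neighbouring genes with a peak at a coding start in a window, listed pathway genes that differed between lists (Uhrf2, Usp7 and the 5 genes of the list without more coverage in both EPSC lists were added after their values were seen), the 2 genes most alike each member if under 100 bp apart, and every region at a start or found in part of the lists inside a gene. One gene that the rule names is not reported here. No test across replicates was possible, since each state has a single list. Alternatives were other windows, start distances, merging rules and minimum widths, and lists cut to the size of the smallest. The scripts used Python 3.11.15, numpy 2.4.6, scipy 1.17.1 and pandas 2.3.3. Merging and counting were tested on simulated data against bedtools 2.31.1.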

Additional observations from a re-analysis of the deposited data

How the results depend on the processing

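No paired analysis was possible because each state has a single list that holds nothing for either replicate alone, which also kept a replicate from being left out. Counts and other values were taken as unchanged when within 1.5 times the value reported. Of 126 recomputed values for the main comparisons, 102 stayed within that range and 24 did not. Both EPSC lists had more peaks in the windows than ESCs under all 6 alternatives.

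Windows of 50 kb on either side held 32 ESC, 70 D-EPSC and 54 L-EPSC peaks, and gene bodies alone 7, 21 and 17. When every list was cut to its 28965 widest peaks the D-EPSC number was 24, and without peaks at starts of other genes the ESC number was 10. Regions in all 3 lists numbered 29 at 50 kb, 6 in gene bodies, 9 at a reciprocal overlap of 50% and 9 without those at other starts. Regions in both EPSC lists only numbered 18 at 50 kb, 7 in gene bodies and 2 with the widest peaks. Regions of a single EPSC list, 17 in the main count, numbered 8 in gene bodies, 29 at the reciprocal overlap and 9 when only the widest were kept. Regions in ESCs only numbered 1 at 50 kb and 4 at the reciprocal overlap. Start groups in both EPSC lists and not in ESCs numbered 0 with the widest peaks. At 10 kb 12 regions lay outside the genes. In 400 bp around the midpoint CCGGAAGT and TTTCGCGC were each in 1 region. The widest-peak setting removes EPSC peaks by its construction, and wider or narrower windows change how much sequence is counted. For the other changes the cause was not tested. Unknown depth limits every statement on a missing peak.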
